A study of Mus musculus with 6 samples.

Results

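The genes described here are 5 members of the tumour necrosis factor (TNF) receptor family that act as costimulators of lymphocytes: Tnfrsf4 (the receptor OX40), Tnfrsf9 (4-1BB), Tnfrsf18 (GITR), Tnfrsf1b (TNF receptor type II) and Cd27. They were listed by name, with earlier results of these data known, and all 5 were among the 14125 genes of the deposited single-cell count matrix. Cells came from the uterine-draining lymph nodes (udLN) and the brachial lymph nodes (brLN) of 7 pregnant mice at embryonic day 9.5. Of these dams, 4 were Aire-DTR mice, which carry the diphtheria toxin receptor under control of Aire so that toxin kills Aire-expressing cells, and 3 were wild type (WT). Dams of both genotypes had been mated to BALB/c males and had received diphtheria toxin for 9 days, so the WT dams were toxin-treated as well. The dams' strain and age and the toxin dose were not stated. In the authors' table of cells, Aire-DTR mice 8, 36 and 7 are called IUGR (intrauterine growth restriction) and Aire-DTR mouse 4 resorbed. Cells carried hashtags and were run in 3 pools, each loaded into 2 wells: pool 1 held Aire-DTR mouse 8 and WT mouse 6, pool 2 held Aire-DTR mouse 36 and WT mouse 97, and pool LN held Aire-DTR mice 4 and 7 and WT mouse 1. The labels name the sorted cells as CD45+ CD3+ while the design text gives CD45+, and B cells were present. The comparison asks how costimulatory receptor transcripts differ in the nodes that drain the uterus, and in nodes that do not, when Aire-expressing cells are ablated during pregnancy.

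TNF receptor family costimulators sit on the surface of T cells, B cells and natural killer (NK) cells. When a TNF family ligand on an antigen-presenting cell clusters them, they recruit TRAF adaptor proteins and activate NF-κB, which favours survival and division of the cell. OX40 and 4-1BB are induced on conventional T cells by antigen receptor signalling, and regulatory T cells (Treg), which restrain immune responses, carry OX40, GITR and TNF receptor type II without recent stimulation in mice. CD27 is already present on naive T cells and binds CD70. Treg cells are known to be needed for a dam to tolerate a fetus that carries paternal antigens.

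On the mouse genome build GRCm38, 4 of the 5 genes lie on chromosome 4, according to the GENCODE annotation. Tnfrsf4 is at chr4:156013843-156016612 and Tnfrsf18 at chr4:156026164-156028895, both on the + strand, with 9551 bases and no other protein-coding gene between them. Tnfrsf9 is at chr4:150914562-150946102 on the + strand. Tnfrsf1b is at chr4:145213463-145246870 on the − strand, beside another family member, Tnfrsf8, which begins 20266 bases away. Cd27 is at chr6:125232622-125237010 on the − strand. The 250 bases before the RefSeq starts are shown for the neighbouring pair Tnfrsf4 and Tnfrsf18, and for Tnfrsf9, whose RefSeq models have 2 starts. These 3 genes were picked because, like the other receptors, they were highest among the CD4 subsets in the activated Treg cells described below. Another reason was that the pair are neighbours. The RefSeq starts differ from the starts of the GENCODE spans above. Both Tnfrsf9 windows lie inside the GENCODE span of that gene, and the Tnfrsf18 window runs past its GENCODE start. The sequences are from RefSeq on GRCm38.p6, + strand, 5′ to 3′, and capitals mark a searched motif: for the first start of Tnfrsf9 a GC box (GGGCGG, here on the other strand), and for its second start an NF-κB consensus followed by an AP-1 motif (TGANTCA).
Tnfrsf4, chr4:156013445-156013694: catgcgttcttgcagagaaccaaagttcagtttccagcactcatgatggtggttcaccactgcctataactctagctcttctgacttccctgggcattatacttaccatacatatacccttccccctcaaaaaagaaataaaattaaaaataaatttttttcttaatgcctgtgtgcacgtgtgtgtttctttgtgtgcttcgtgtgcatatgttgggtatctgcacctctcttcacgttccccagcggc
Tnfrsf18, chr4:156026072-156026321: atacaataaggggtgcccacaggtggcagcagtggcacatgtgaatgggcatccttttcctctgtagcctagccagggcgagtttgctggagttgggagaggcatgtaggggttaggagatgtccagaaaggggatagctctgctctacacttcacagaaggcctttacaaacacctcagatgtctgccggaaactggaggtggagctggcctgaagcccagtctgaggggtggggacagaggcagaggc
Tnfrsf9 first start, chr4:150919905-150920154: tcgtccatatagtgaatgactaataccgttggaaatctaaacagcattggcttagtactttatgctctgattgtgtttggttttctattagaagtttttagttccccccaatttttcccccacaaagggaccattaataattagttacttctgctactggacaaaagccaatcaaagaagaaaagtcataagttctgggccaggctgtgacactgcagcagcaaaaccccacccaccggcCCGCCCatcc
Tnfrsf9 second start, chr4:150927749-150927998: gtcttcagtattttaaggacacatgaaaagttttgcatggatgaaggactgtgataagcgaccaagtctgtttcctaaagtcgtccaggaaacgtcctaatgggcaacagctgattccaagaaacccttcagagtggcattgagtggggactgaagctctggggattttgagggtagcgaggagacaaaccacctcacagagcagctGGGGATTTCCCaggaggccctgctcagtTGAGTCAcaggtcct

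Both strands of the 250 bases were searched for the 4 motifs in 6 windows of the 5 genes and in 32851 windows in all. The NF-κB consensus was in 1 of the 6 windows, against 3.899% of all windows, and lay 43 to 33 bases before the second start of Tnfrsf9, where matches on both strands overlapped. The AP-1 motif was in the same window, 15 to 9 bases before the start, and in 6.749% of all windows. The forkhead motif (TGTTTAC) was in none of the 6 windows and in 3.166% of all, and the GC box was in 2 of the 6, those of the first start of Tnfrsf9 and of Tnfrsf1b, and in 32.742% of all. A match is a description of these letters and was not tied to any binding in these cells.

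The matrix holds counts of unique molecular identifiers (UMIs), each standing for 1 captured transcript. It contained 9427 columns, of which 2127 were exact second copies of cells from 1 well of pool LN, and each cell was used once, leaving 7300 cells and 22833288 UMIs. A cell had a median of 2910 UMIs, with median depths by mouse and node of 2744 to 3145 in udLN of Aire-DTR mice, 2712 to 3191.5 in udLN of WT mice, 2879.5 to 3072.5 in brLN of Aire-DTR mice and 2805 to 3215.5 in brLN of WT mice. Cells per mouse and node ran from 48, in udLN of WT mouse 97, to 1060. After removal of the copies, 208 of 7089 barcode sequences occurred in more than 1 well. Levels are given as counts per 1000000 UMIs (CPM), summed over the cells of a mouse. They are compared within a gene and not between genes, because a 3′ library captures each transcript differently.

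The authors had named 9 cell types and, within CD4 memory and Treg cells, 5 subsets, and these names were kept. The defining markers given here followed the names. Foxp3, the transcription factor that defines Treg cells, was at 451 CPM in the subset called Act. Treg, 461 CPM in Resting Treg and 455 CPM in the cell type CD4+ Treg, and at 5.16 CPM in naive CD4 cells. The 155 Act. Treg cells came mostly from the cell type CD4+ Mem T (117 cells) and otherwise from CD4+ Treg (38 cells), and Foxp3 was at 121 CPM in CD4+ Mem T cells. Cxcr5, the homing receptor of follicular helper cells, was at 206 CPM in the subset Tfh, and Ncr1, an NK receptor, at 881 CPM in NK cells. The subset Early Act. CD4 also held Cd8a, a subunit of the CD8 coreceptor, at 212 CPM, against 513 CPM in CD8+ Mem T cells. Because types and subsets were named from the expression of the same cells, the levels by type below are descriptions with no test.

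The Act. Treg subset had the highest level of each of the 5 genes among the CD4 subsets, and for Tnfrsf9, Tnfrsf18 and Tnfrsf1b its lowest mouse was above the highest mouse of every other CD4 subset. Tnfrsf4, whose product OX40 supports survival of activated T cells and is carried by Treg cells, averaged 1577 ± 537 CPM in Act. Treg (SD over n = 6 mice with 10 or more cells). By mouse this was 577, 1779, 1408 and 1945 CPM in Aire-DTR mice 8, 36, 4 and 7, against 2044 and 1712 CPM in WT mice 97 and 1. Aire-DTR mouse 8 was the lowest, below the 667 CPM of Tfh cells in Aire-DTR mouse 7. Next came Resting Treg at 343 ± 93.4 CPM (n = 7), Tfh at 272 ± 225 CPM (n = 5) and Early Act. CD4 at 212 ± 133 CPM (n = 7), whose ranges over mice overlapped one another. Th17 cells were lowest at 33.7 ± 24.6 CPM (n = 4).

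Among the 9 cell types, Tnfrsf4 was highest in the memory and Treg types of CD4 cells. CD4+ Mem T cells held 512 ± 164 CPM and CD4+ Treg 375 ± 93.1 CPM (n = 7 each), and these ranges overlapped. CD4+ Naive T cells had 16.1 ± 4.60 CPM, B cells 5.00 ± 4.19 CPM, CD8+ Mem T cells 3.60 ± 5.34 CPM and CD8+ Naive T cells 1.11 ± 0.769 CPM. None of the 73 γδ T cells had a Tnfrsf4 UMI, and 1 of 73 myeloid cells and 1 of 54 NK cells had one. Of the 1429 Tnfrsf4 UMIs in the matrix, 69.0% were in CD4+ Mem T cells and 22.5% in CD4+ Treg cells, and the 155 Act. Treg cells alone held 768, or 53.7%.

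Tnfrsf9, which encodes 4-1BB, an inducible receptor of activated T and NK cells, was highest in the same subset. Act. Treg had 446 ± 135 CPM (n = 6), with 335, 383, 295 and 489 CPM in Aire-DTR mice 8, 36, 4 and 7, against 511 and 660 CPM in WT mice 97 and 1. All 4 Aire-DTR values were below both WT values, as for 8.19% of the 1477 genes tested in this subset. Early Act. CD4 followed with 155 ± 57.2 CPM and Tfh with 43.1 ± 33.4 CPM, while Resting Treg had 19.6 ± 16.6 CPM and Th17 7.41 ± 9.79 CPM. By cell type, CD4+ Mem T cells had 211 ± 75.7 CPM, and CD4+ Treg cells 34.1 ± 16.5 CPM, with no overlap over mice. NK cells had 82.9 ± 78.5 CPM, a mean of 138 and 27.4 CPM in the only 2 mice with enough NK cells. The other 6 types averaged from 4.76 CPM in CD8+ Naive T cells to 24.0 CPM in γδ T cells, with overlapping ranges.

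Tnfrsf18 encodes GITR, a receptor that Treg cells carry in mice. It was at 708 ± 110 CPM in Act. Treg (n = 6, from 510 to 828 CPM), 355 ± 67.1 CPM in Resting Treg, 173 ± 63.8 CPM in Tfh, 137 ± 40.8 CPM in Early Act. CD4 and 97.6 ± 38.3 CPM in Th17. Both Treg subsets were above the other 3 with no overlap over mice. By type, CD4+ Treg cells had 379 ± 71.8 CPM, CD4+ Mem T cells 265 ± 22.6 CPM and NK cells 220 ± 79.7 CPM (n = 2). Unlike Tnfrsf4 it did not fall near 0 elsewhere. Naive CD4 cells had 80.7 ± 10.5 CPM, CD8+ Naive T cells 66.6 ± 10.4 CPM and B cells 32.4 ± 8.0 CPM.

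Tnfrsf1b encodes a receptor for TNF and lymphotoxin-α. Act. Treg had 161 ± 46.9 CPM (n = 6, from 107 to 245 CPM), and Tfh, Early Act. CD4, Th17 and Resting Treg had 34.4, 32.3, 31.2 and 13.2 CPM, with overlapping ranges. The cells named Myeloid had 65.0 ± 24.0 CPM (n = 4), CD4+ Mem T cells 70.7 ± 20.9 CPM and B cells 6.41 ± 2.54 CPM. It was found in 17.8% of the 73 myeloid cells and 1.46% of B cells, or 7.45% and 0.523% after thinning to 1000 UMIs. The myeloid cells held the myeloid gene Lyz2 at 3612 CPM, but also the T cell gene Cd3d at 428 CPM and the haemoglobin gene Hbb-bs at 55164 CPM, and the part of RNA from other cells in their Tnfrsf1b level was not tested.

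Cd27, which encodes the receptor for CD70, was the most even. Act. Treg had 414 ± 92.8 CPM, but its range over mice, 314 to 564 CPM, overlapped that of Resting Treg at 293 ± 84.1 CPM. Among the types, γδ T cells had 323 ± 141 CPM (n = 4), CD4+ Treg cells 317 ± 64.6 CPM, CD4+ Mem T cells 277 ± 41.2 CPM, CD4+ Naive T cells 246 ± 33.8 CPM, CD8+ Naive T cells 240 ± 16.2 CPM and CD8+ Mem T cells 233 ± 26.4 CPM. These neighbours did not differ beyond their spread. NK cells had 132 ± 122 CPM (n = 2), myeloid cells 89.4 ± 63.8 CPM and B cells 21.6 ± 9.06 CPM.

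**Figure D1:**
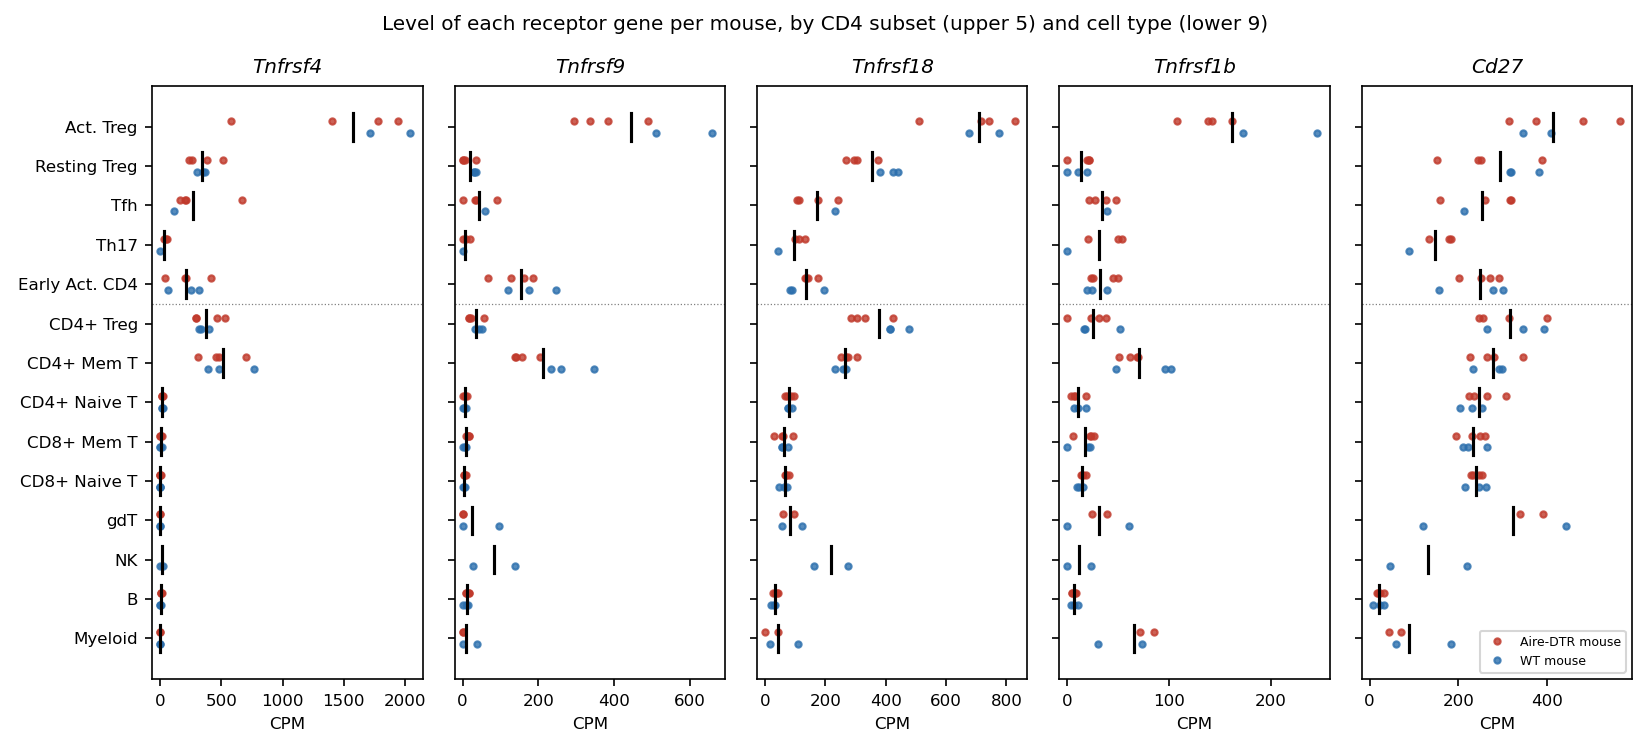
CPM of each receptor gene (horizontal axis, linear, scaled per gene) in the 5 CD4 subsets above the dotted line and the 9 cell types below it. Each point is 1 mouse with at least 10 cells of the type, Aire-DTR in red and WT in blue, and the black line is the mean over mice; Act. Treg is highest among the CD4 subsets for all 5 genes, and Cd27 is spread over all T cell types.

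The share of cells with at least 1 UMI depends on depth, so the share expected after thinning each cell to 1000 UMIs is also given. Cells with fewer than 1000 UMIs were left out of the thinned shares. Tnfrsf4 was found in 73.5% of Act. Treg cells (114 of 155; 95% Wilson interval 66.1 to 79.9%) and in 53.5% after thinning. In B cells, taken as a type with little of this receptor, and with a median of 2261 UMIs against 2763 in Act. Treg, it was found in 0.926%, or 0.381% after thinning. CD8+ Naive T cells, at 0.417%, were below that share. Tnfrsf9 was found in 42.6% of Act. Treg cells (26.0% thinned), 20.7% of Early Act. CD4 cells (10.5% thinned) and 0.882% of B cells (0.322% thinned). Naive CD4 cells, with Tnfrsf9 in 1.53% (0.527% thinned), lay close to the B cell share. Of the 20 B cells with a Tnfrsf9 UMI, 15 also had a Cd27 UMI, against 3.26% of all B cells. A Tnfrsf18 UMI was in 12 of the 20, against 7.37% of all B cells. Whether these were 2 cells in 1 droplet was not tested. Cd27 was found in 65.8% of CD8+ Mem T cells, the deepest type with a median of 5102 UMIs, but thinning left 20.5%, against 21.7% in CD4+ Naive T cells. Intervals cover counting error only.

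Several receptors were often found in 1 cell. In Act. Treg, 91 of 155 cells (58.7%) had UMIs of 3 or more of the 5 genes, against 21.4% in Resting Treg, 17.6% in Early Act. CD4, 14.7% in Tfh and 5.71% in Th17. The share was 0.998% in CD4+ Naive T cells and 0.618% in B cells. Within CD4+ Mem T cells, 43.9% of the 173 cells with a Tnfrsf4 UMI also had a Tnfrsf9 UMI, while 23.1% of all 533 cells of that type had one. That type mixes subsets. Within Act. Treg the shares were 47.4% of the 114 cells with a Tnfrsf4 UMI and 42.6% of all 155 cells, and in CD4+ Treg 9.36% of 171 and 7.01% of 328 cells. These shares were not thinned, and deeper cells hold more genes. A type with more of each gene alone also has more cells with 3 or more. The shares with 3 or more were not set against those expected from each gene alone.

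**Figure D2:**
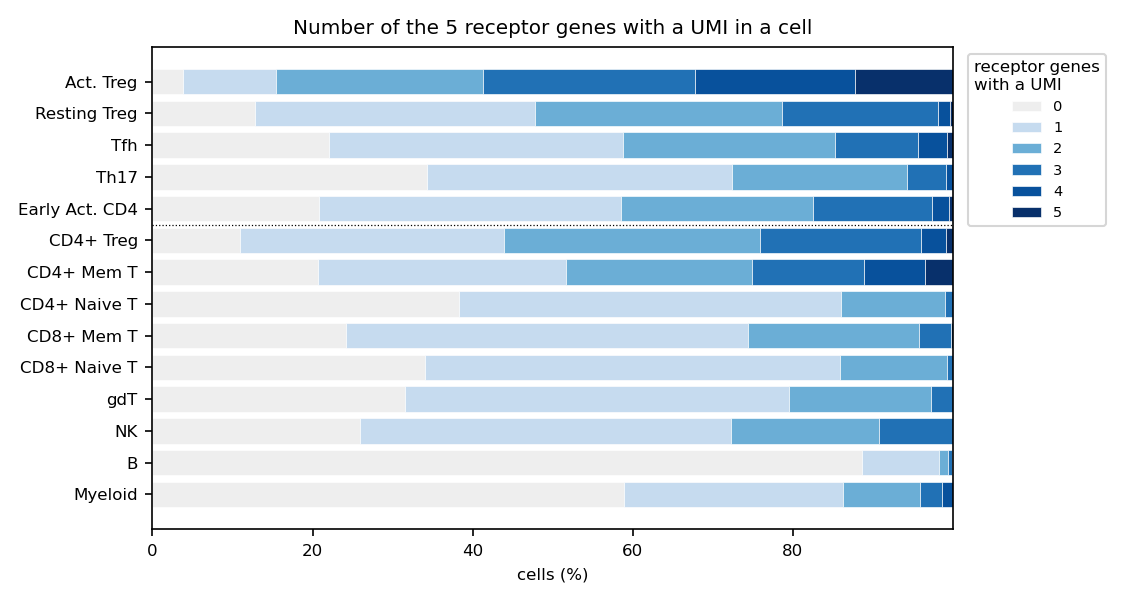
Share of cells (%) by how many of the 5 receptor genes had at least 1 UMI in the cell, from 0 (light) to 5 (dark), for the 5 CD4 subsets above the dotted line and the 9 cell types below it. In Act. Treg, 58.7% of cells had 3 or more, against 0.618% of B cells.

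The genes whose levels followed each receptor most closely over the 14 subsets and types were found by Pearson's correlation of log2(mean CPM + 1) among 8223 genes. The subsets are also parts of the types, so the 14 points share cells and the values are descriptions. For Tnfrsf4 they were Ctla4 (r = 0.965), an inhibitory receptor of Treg cells, Nrn1 (0.951) and Ankrd12 (0.937). For Tnfrsf9 they were Tgif1 (0.933), St13 (0.898) and Nr4a3 (0.894), a nuclear receptor gene induced by antigen receptor signalling. For Tnfrsf18 they were Exosc8 (0.934), Cd2 (0.918), an adhesion receptor, and H2-K1 (0.913), a class I histocompatibility gene. For Tnfrsf1b they were Supt4a (0.858), Psmb5 (0.841) and H13 (0.837). For Cd27 they were Prkch (0.989), Cd3d (0.980), a subunit of the T cell receptor complex, and Spr (0.961). Between the receptors themselves the correlation was 0.852 for the neighbouring genes Tnfrsf4 and Tnfrsf18, 0.742 for Tnfrsf9 and Tnfrsf18, and 0.700 for Tnfrsf4 and Tnfrsf9.

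Genotypes were compared on UMI counts summed over the cells of 1 type, mouse and node, with edgeR's quasi-likelihood test across all genes and Benjamini-Hochberg adjustment. Log2 differences are Aire-DTR over WT. The standard error (SE) given with edgeR values was derived from the log2 difference and its test statistic. In udLN only 2 WT mice entered for CD4 T cells, because WT mouse 97 had 9 such cells there. In these sums fewer cells that carry a receptor and less of its RNA per cell cannot be told apart. Of 79 differences of the 5 genes over 25 comparisons, 1 passed an adjusted p of 0.05, and 15 had an unadjusted p below 0.05, against 5.06% of all gene tests in those comparisons. That 1 was Tnfrsf4 in CD4 T cells, for the difference between genotypes in how udLN compared with brLN. The 79 differences are not independent, since types, subsets and node-ratio fits share cells and mice.

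Tnfrsf4 in CD4 T cells of udLN was at 191, 135, 173 and 124 CPM in Aire-DTR mice 8, 36, 4 and 7, against 159 and 231 CPM in WT mice 6 and 1. In brLN it was at 155, 202, 192 and 197 CPM in Aire-DTR mice 8, 36, 4 and 7, against 118, 228 and 87.7 CPM in WT mice 6, 97 and 1. In each node the genotypes overlapped. Within a mouse, the log2 ratio of udLN over brLN was 0.30, −0.58, −0.15 and −0.65 in Aire-DTR mice 8, 36, 4 and 7, against 0.44 and 1.40 in WT mice 6 and 1. All 4 Aire-DTR ratios were below both WT ratios, which 7.62% of the 6403 genes tested also showed. The fitted difference was −1.39 (SE 0.26; adjusted p = 0.00383 by edgeR's quasi-likelihood test), and 5 of 6403 genes passed (0.0781%). An exact two-sided permutation test of the ratios gave p = 0.133, the smallest that 4 against 2 mice allow.

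The size of this difference rested largely on WT mouse 1. Without it the fitted difference was −0.69 with an adjusted p of 0.811 by edgeR, leaving WT mouse 6 as the only WT mouse in that fit. Within pool 1 the log2 ratio of udLN over brLN of Tnfrsf4 differed between Aire-DTR mouse 8 and WT mouse 6 by −0.14, and within pool LN the mean of Aire-DTR mice 4 and 7 differed from WT mouse 1 by −1.80. Pool 2 had no WT value, since WT mouse 97 was left out. DESeq2 gave −1.28 with an adjusted p of 0.9997. With the second copies of cells kept, as in the matrix as deposited, the difference was −1.75 and the adjusted p 6.17e-05 by edgeR.

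**Figure D3:**
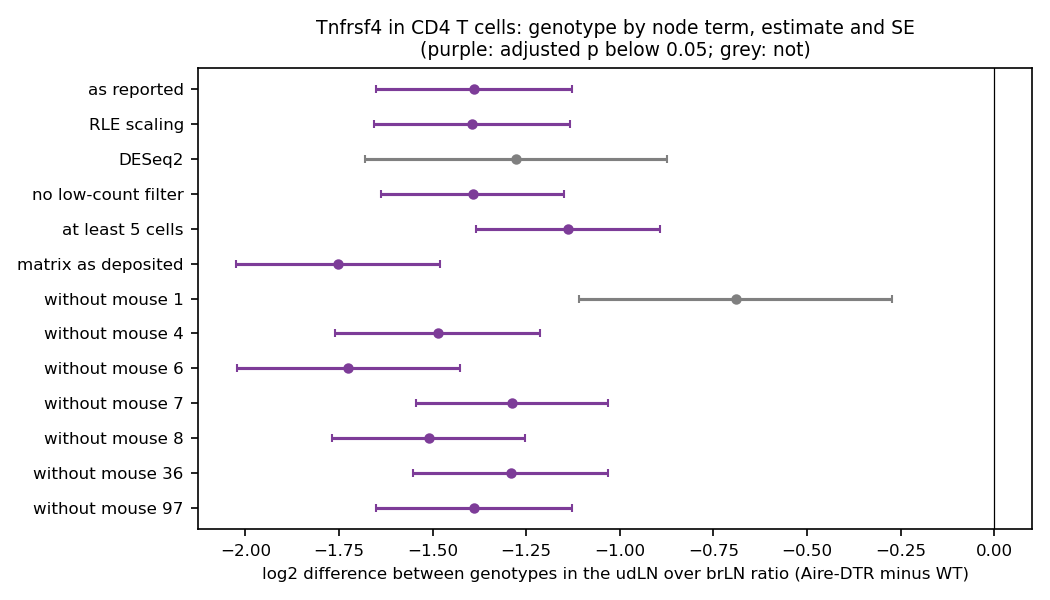
Fitted log2 difference between genotypes (Aire-DTR minus WT) in the udLN over brLN ratio of Tnfrsf4 in CD4 T cells, with its SE as bars, as reported and under 12 alternatives. Purple points have an adjusted p below 0.05. All 13 points lie below 0, from −1.75 to −0.69, and the fit without WT mouse 1 and the DESeq2 fit do not pass. The fit without WT mouse 97 repeats the one as reported, since that mouse was not in it.

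The other genes that passed this test were Gm20594, the T cell receptor segments Trbv15 and Trbv13-3, and Hbb-bs, a red cell haemoglobin gene, named after their values were seen. Hbb-bs shares reads with near-identical copies. Red cell transcripts in CD4 T cells of udLN summed to between 0 and 2215 CPM in Aire-DTR mice and between 2.25 and 604 CPM in WT mice, and to between 6.04 and 611 CPM and between 8.09 and 1075 CPM in brLN of Aire-DTR and WT mice. They moved with the pool, being near 0 in pool LN, and their part in the result was not tested. B cell markers summed to 12.8 to 53.2 CPM in Aire-DTR mice and 15.7 to 38.5 CPM in WT mice in udLN, CD8 markers to 88.6 to 226 CPM in Aire-DTR mice and 148 to 225 CPM in WT mice, and myeloid markers to 106 to 164 CPM in Aire-DTR mice and 108 to 115 CPM in WT mice. These 3 ranges overlapped between genotypes. Ncr1 had no UMI in CD4+ Treg, CD4+ Mem T or CD4+ Naive T cells.

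For the other 4 receptors the same term in CD4 T cells did not pass. It was −1.24 (SE 0.40; adjusted p = 0.874 by edgeR) for Tnfrsf9, −1.37 (SE 0.60; adjusted p = 0.981) for Tnfrsf1b, −0.33 (SE 0.26; adjusted p = 0.991) for Tnfrsf18 and 0.48 (SE 0.21; adjusted p = 0.981) for Cd27. The 3 receptors with an unadjusted p below 0.05 here, Tnfrsf9, Tnfrsf1b and Cd27, stood beside 4.86% of all genes at that level. Because 1 fit and 1 set of mice underlie all 5 values, they are not independent of one another.

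Within udLN, Tnfrsf9 in CD4 T cells was at 31.9, 49.1, 22.0 and 62.0 CPM in Aire-DTR mice 8, 36, 4 and 7, against 82.4 and 80.9 CPM in WT mice 6 and 1. All 4 Aire-DTR mice were below both WT mice, as for 6.23% of 6513 genes. The difference was −1.14 (SE 0.32) and did not pass over all genes (adjusted p = 0.691 by edgeR). With udLN fitted alone it was −1.27 and passed (adjusted p = 0.0282, where 7 of 5423 genes, or 0.129%, passed). Within pool 1 the difference in log2 CPM was −1.34 and within pool LN −1.11. In brLN Tnfrsf9 was at 67.3, 58.7, 63.0 and 48.3 CPM in Aire-DTR mice 8, 36, 4 and 7, against 85.1, 64.3 and 35.1 CPM in WT mice 6, 97 and 1. There the genotypes overlapped and the difference was 0.07 (SE 0.22; adjusted p = 0.995).

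The other receptors in CD4 T cells of udLN gave the following. Tnfrsf1b was at 31.9, 12.8, 26.8 and 29.5 CPM in Aire-DTR mice 8, 36, 4 and 7, against 33.0 and 38.2 CPM in WT mice 6 and 1 (log2 difference −0.69, SE 0.44; adjusted p = 0.948 by edgeR). All 4 Aire-DTR values were below both WT values, as for 6.23% of 6513 genes. Aire-DTR mouse 8, with 9 UMIs, lay next to WT mouse 6, with 6 UMIs. Cd27 was at 273, 359, 285 and 263 CPM in Aire-DTR mice, against 247 and 211 CPM in WT mice (0.38, SE 0.17; adjusted p = 0.921). Tnfrsf18 was at 195, 111, 181 and 180 CPM in Aire-DTR mice, against 159 and 191 CPM in WT mice (−0.11, SE 0.20; adjusted p = 0.987). Cd27 was above both WT mice in all 4 Aire-DTR mice, as for 8.23% of 6513 genes, and Tnfrsf18 overlapped. For Tnfrsf4 the difference was −0.50 (SE 0.23; adjusted p = 0.921). In udLN no receptor was among the genes that passed, which were 1 of 6513 (0.0154%), the segment Trbv15.

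In brLN, where 0 of 6513 genes (0%) passed by edgeR in CD4 T cells, 310 genes had an unadjusted p below 0.05, DESeq2 called 0 and limma voom 4. The log2 difference of Tnfrsf4 was 0.39 (SE 0.17; adjusted p = 0.991 by edgeR). Leaving out WT mouse 97 gave 0.96 (adjusted p = 0.0365) and leaving out Aire-DTR mouse 36 gave 0.92 (adjusted p = 0.0377), both past the threshold, while leaving out WT mouse 1 gave −0.04. Tnfrsf18 was at 162, 163, 145 and 150.3 CPM in Aire-DTR mice 8, 36, 4 and 7, against 170.3, 163 and 119 CPM in WT mice 6, 97 and 1. Tnfrsf1b was at 20.2, 35.6, 29.5 and 16.6 CPM in Aire-DTR mice, against 22.9, 36.9 and 12.1 CPM in WT mice. Cd27 was at 357, 251, 194 and 227 CPM in Aire-DTR mice, against 223, 272 and 268 CPM in WT mice. All 3 overlapped between genotypes, with log2 differences of 0.07 (SE 0.14), 0.15 (SE 0.32) and −0.08 (SE 0.12).

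**Figure D4:**
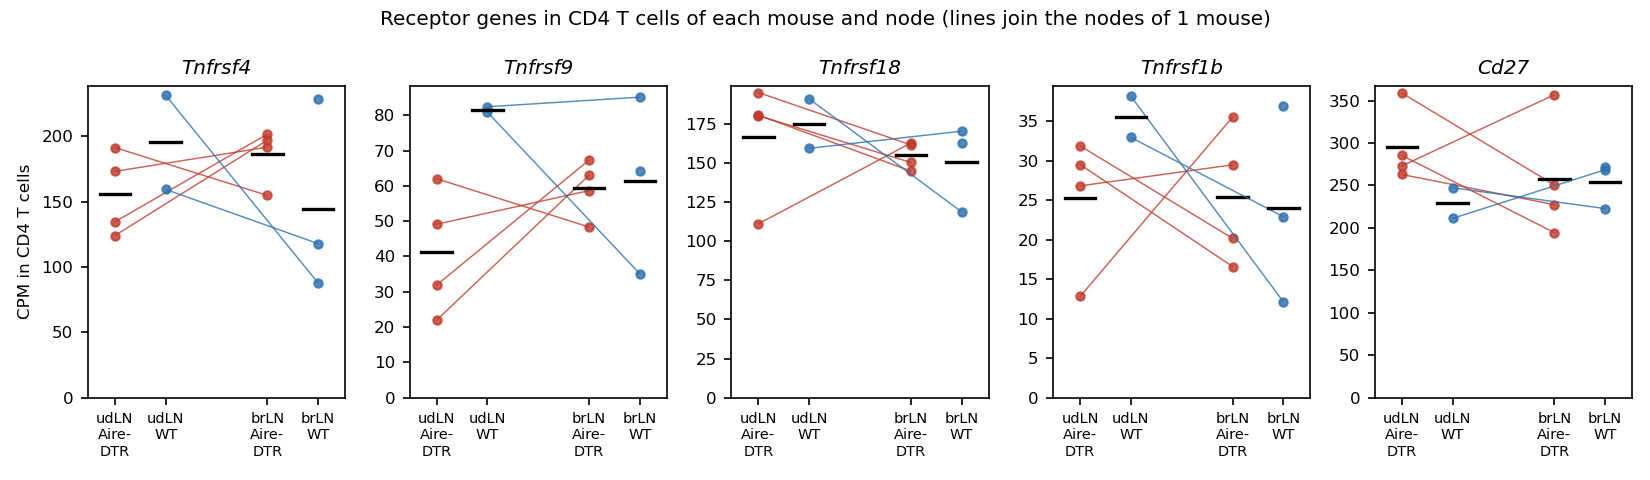
CPM of each receptor gene in CD4 T cells, 1 point per mouse and node, Aire-DTR in red left of WT in blue within each node, with lines joining the 2 nodes of a mouse and black bars for group means; WT mouse 97 has no udLN point. For Tnfrsf4 both WT lines fall towards brLN, while 3 of the 4 Aire-DTR lines rise.

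Nodes were compared within mouse, udLN over brLN, with 22 of 5177 genes (0.425%) passing in CD4 T cells. None of the 5 receptors did. Their log2 differences ran from −0.18 (SE 0.21) for Tnfrsf9 to 0.17 (SE 0.28) for Tnfrsf1b, with Tnfrsf4 at 0.01 (SE 0.15). The only gene of the lists described below that passed was Izumo1r, the folate receptor 4 gene of Treg and anergic T cells, which was higher in udLN than in brLN (0.63, SE 0.08; adjusted p = 3.16e-06 by edgeR).

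The Tnfrsf4 UMIs of CD4 T cells came to a large part from few cells. Over sums of at least 20 cells, Act. Treg made up 15.1, 9.03, 6.48 and 6.61% of udLN CD4 T cells in Aire-DTR mice 8, 36, 4 and 7. In udLN of WT mice 6 and 1 the share was 7.27 and 9.03%. In brLN it was 7.69, 6.38, 6.10 and 3.32% in the same Aire-DTR mice, against 3.57, 4.66 and 3.38% in WT mice 6, 97 and 1. Every mouse with both sums had the higher share in udLN. The part of this share in the Tnfrsf4 node ratio was not tested. In udLN the Act. Treg subset held 51.9, 44.4, 22.5 and 57.1% of the Tnfrsf4 UMIs of CD4 T cells in Aire-DTR mice 8, 36, 4 and 7, against 27.6 and 68.9% in WT mice 6 and 1. In brLN it held 32.6, 79.7, 67.8 and 50.2% in Aire-DTR mice 8, 36, 4 and 7, against 41.7, 59.9 and 58.5% in WT mice 6, 97 and 1.

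Within the Act. Treg cells of udLN, Tnfrsf4 was at 654, 590.02, 703 and 922 CPM in Aire-DTR mice 8, 36, 4 and 7 (8 to 19 cells each), against 847 and 1842 CPM in WT mice 6 and 1 (4 and 14 cells), and WT mouse 97 had no UMI in 2 cells. Within those of brLN it was at 473, 2584, 2104 and 2441 CPM in Aire-DTR mice 8, 36, 4 and 7, against 1286, 2243 and 1513 CPM in WT mice 6, 97 and 1. Aire-DTR mouse 8 differed from the other 3, its brLN value being the lowest of all. Summed over mice, Act. Treg cells of udLN had 692 CPM in Aire-DTR mice (95% Poisson interval 569.9 to 833) against 1509 CPM in WT mice (1195 to 1881). In brLN the sums were 2104 CPM in Aire-DTR mice (1908 to 2314) and 1880 CPM in WT mice (1594 to 2203). Of the 79 WT UMIs in udLN, 71 were from WT mouse 1, and without it the WT sum there was 580.2 CPM (250.5 to 1143), from 8 UMIs in 6 cells. That is below the Aire-DTR sum. These intervals cover counting error only and pool mice, and no test was made, since too few mice had enough of these cells in each node. Outside Act. Treg, Tnfrsf4 in CD4 T cells of udLN was at 109, 83.2, 142 and 57.6 CPM in Aire-DTR mice 8, 36, 4 and 7, against 122 and 78.7 CPM in WT mice 6 and 1, and the genotypes overlapped.

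For Tnfrsf9 the summed level in Act. Treg cells of udLN was 198 CPM in Aire-DTR mice (135 to 279) against 688 CPM in WT mice (482 to 952), and in brLN 516 CPM (422 to 625) against 701 CPM (531 to 908). Leaving out each mouse gave 155 to 227 CPM in Aire-DTR mice and 629.5 to 729 CPM in WT mice in udLN. By mouse in udLN it was at 117, 211, 132 and 423 CPM in Aire-DTR mice 8, 36, 4 and 7, against 953, 230.3 and 674 CPM in WT mice 6, 97 and 1. WT mouse 97, with 2 such cells, lay among the Aire-DTR mice. Tnfrsf18 had 507 CPM in Aire-DTR mice against 554 CPM in WT mice in udLN, and Cd27 had 414 CPM against 439 CPM.

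**Figure D5:**
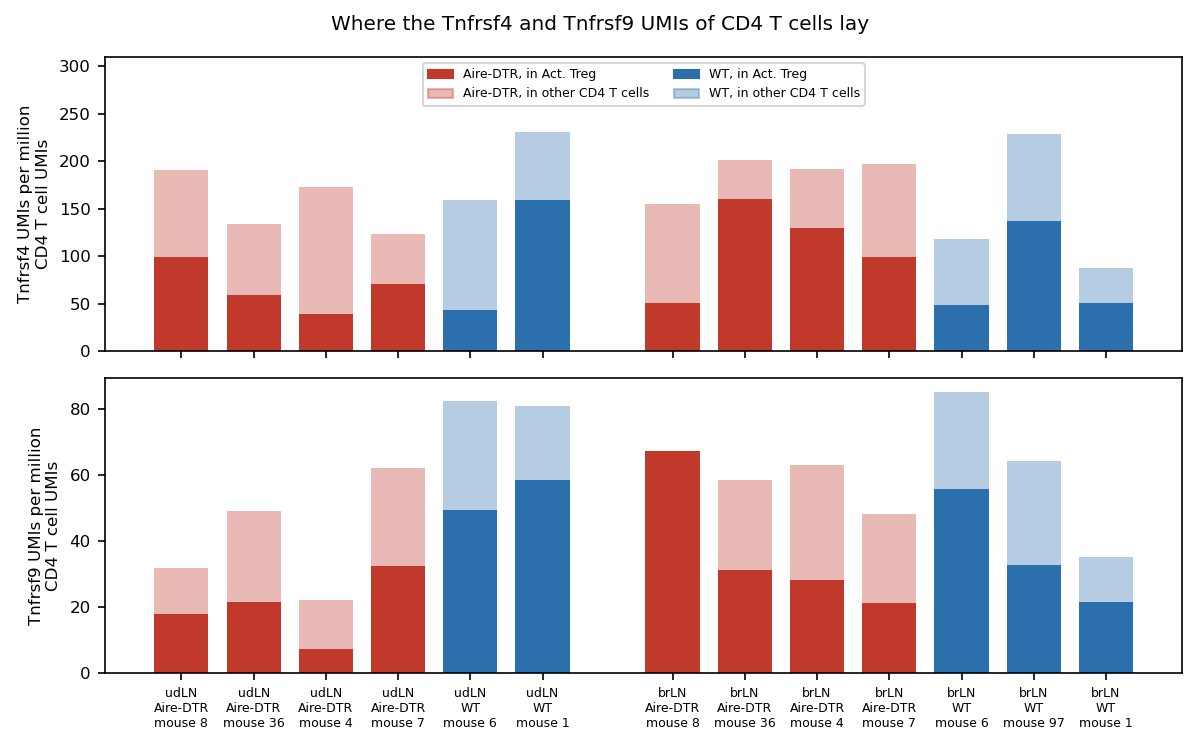
Tnfrsf4 (top) and Tnfrsf9 (bottom) in CPM of all CD4 T cell UMIs, 1 bar per mouse and node from 0, with the part found in Act. Treg cells in full colour and the part in other CD4 T cells pale; Aire-DTR is red and WT blue. In udLN the Act. Treg part of Tnfrsf4 is largest in WT mouse 1.

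With both nodes summed, Act. Treg cells could be tested, and 2 of 1477 genes (0.135%) passed. Neither was a receptor. The log2 difference of Tnfrsf9 was −0.62 (SE 0.28; adjusted p = 0.997 by edgeR), and the other 4 receptors were between −0.43 and 0.07. In Resting Treg (0.0667% of genes passed) Tnfrsf18 was at 305, 268, 375 and 294 CPM in Aire-DTR mice 8, 36, 4 and 7, against 423, 381 and 442 CPM in WT mice 6, 97 and 1. All 4 Aire-DTR values were below the 3 WT values, as for 2.6% of 1500 genes (−0.43, SE 0.21; adjusted p = 0.9999). In Early Act. CD4 cells (0.0803% passed) 4 receptors were tested and lay between −0.36 and 0.40, none passing.

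In CD4+ Mem T cells no gene of 2825 passed for genotype in either node (0%), 172 in udLN (6.09%) and 107 in brLN (3.79%) having an unadjusted p below 0.05, and DESeq2 called 0 in both. Tnfrsf9 was the receptor with an unadjusted p below 0.05 in each. In udLN it was at 77.2, 124, 78.7 and 233 CPM in Aire-DTR mice 8, 36, 4 and 7, against 251 and 236 CPM in WT mice 6 and 1 (−1.0, SE 0.37; adjusted p = 0.816 by edgeR). In brLN it was at 222, 168, 198 and 195 CPM in Aire-DTR mice 8, 36, 4 and 7, against 427, 265 and 228 CPM in WT mice 6, 97 and 1 (−0.58, SE 0.27; adjusted p = 0.999). Every Aire-DTR mouse was below every WT mouse in both nodes, as for 7.4% of 2825 genes in udLN and 3.15% in brLN. Between nodes, udLN over brLN, the log2 difference of Tnfrsf9 was −0.57 (SE 0.21; adjusted p = 0.359), where 0.332% of genes passed. Tnfrsf4 in CD4+ Mem T cells of udLN was at 386, 276, 409 and 429 CPM in Aire-DTR mice 8, 36, 4 and 7, against 481 and 610.1 CPM in WT mice 6 and 1. In brLN it was at 198, 557, 503 and 783 CPM in Aire-DTR mice, against 319.9, 780.5 and 332 CPM in WT mice 6, 97 and 1. The difference between genotypes in the node ratio was −1.26 (SE 0.40; adjusted p = 0.565), and 0 of 2712 genes passed it by edgeR (0%), with 141 at an unadjusted p below 0.05 and 0 by DESeq2.

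In CD4+ Naive T cells of udLN (0.0649% of genes passed), Cd27 was at 282, 342, 273 and 249 CPM in Aire-DTR mice 8, 36, 4 and 7, against 199 and 187 CPM in WT mice 6 and 1. All 4 Aire-DTR mice were above both WT mice, as for 7.16% of 4625 genes, and the difference of 0.59 (SE 0.20) did not pass (adjusted p = 0.682 by edgeR). In brLN (0.0432% passed) it was −0.06 (SE 0.13), and Tnfrsf18 was at −0.05 in udLN and 0.06 in brLN. In CD4+ Treg cells, Tnfrsf4, Tnfrsf18 and Cd27 were tested, and none passed or had an unadjusted p below 0.05 for genotype, with log2 differences of −0.37 to 0.21 in udLN and −0.33 to 0.08 in brLN. For genotype, 0 of 1340 genes passed by edgeR in each node (0%), 80 in udLN (5.97%) and 49 in brLN (3.66%) having an unadjusted p below 0.05, and DESeq2 called 1 in udLN and 0 in brLN. Their node differences were 0.06 to 0.37 (0.417% passed) and their differences between genotypes in the node ratio −0.70 to 0.81 (0.36% passed).

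In CD8 T cells only Tnfrsf18 and Cd27 had enough UMIs to be tested. Tnfrsf18 was at 66.0, 60.3, 72.9 and 82.4 CPM in udLN of Aire-DTR mice 8, 36, 4 and 7, against 70.4 and 61.1 CPM in WT mice 6 and 1. Cd27 was at 225, 255, 257 and 224 CPM in udLN of Aire-DTR mice, against 281 and 230.3 CPM in WT mice. Both overlapped between genotypes. The log2 differences were 0.20 (SE 0.27) for Tnfrsf18 and −0.03 (SE 0.15) for Cd27 in udLN (0.017% of genes passed), and 0.05 (SE 0.16) and 0.04 (SE 0.10) in brLN (0.0851% passed). Node differences were 0.03 and 0.08 (0.216% passed), and the differences between genotypes in the node ratio were 0.18 and −0.13 (0.12% passed). In B cells only Tnfrsf18 was tested, with 0.06 (SE 0.46) in udLN and 0.42 (SE 0.32) in brLN for genotype (0% passed in each by edgeR, with 268 genes in udLN and 171 in brLN at an unadjusted p below 0.05, and 3 and 0 called by DESeq2), −0.14 between nodes (0.0479% passed) and −0.52 for the genotype difference in the node ratio (0.0195% passed), none of them passing.

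Of the 6 ligand genes listed, 4 were analysed here, with 2 to 867 UMIs in all cells. Cd70, the ligand of CD27, had 2 UMIs, both in 1 B cell of 7300 cells. Tnfsf9, the ligand of 4-1BB, had 101 UMIs in 97 cells, and was at 10.4 CPM in CD4+ Mem T cells and 2.75 CPM in B cells. Tnf had 413 UMIs and was at 53.3 CPM in CD4+ Mem T cells, 42.5 CPM in myeloid cells, 34.2 CPM in CD4+ Treg cells and 21.2 CPM in B cells. Lta, which encodes lymphotoxin-α, had 867 UMIs and was at 147 CPM in CD4+ Treg cells, 57.5 CPM in B cells and 55.9 CPM in CD4+ Mem T cells. In CD4 T cells 2 ligands were tested and neither passed in any comparison, Tnf being at −0.34 (SE 0.50) in udLN and Lta at −0.42 (SE 0.23) in brLN between Aire-DTR and WT mice.

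Downstream of the receptors, 15 of 15 TRAF and NF-κB genes were tested for genotype in CD4 T cells and none passed in either node. In udLN 10 of the 15 were above 0, with a median log2 difference of 0.17 against 0.00 over all genes, and in brLN 6 of the 15, with a median of −0.04 against 0.00. Nfkbia, which encodes the NF-κB inhibitor IκBα and is itself induced by NF-κB, had the smallest p of this list in several comparisons. Its log2 difference was 0.78 in CD4+ Mem T cells of udLN (SE 0.19; adjusted p = 0.816 by edgeR), 0.86 in Early Act. CD4 cells (SE 0.22; adjusted p = 0.382) and 0.54 in CD8 T cells of udLN (SE 0.17; adjusted p = 0.816), but −0.29 in CD4+ Naive T cells of udLN (SE 0.19; adjusted p = 0.966), and none passed. Of 12 other TNF receptor family genes in the matrix, 5 were tested in CD4 T cells and none passed, Fas, the death receptor, being at −0.38 (SE 0.24) in brLN and Tnfrsf25, a costimulatory receptor, at −0.16 (SE 0.25) in udLN.

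The immunoglobulin family of costimulators and inhibitory receptors was examined in the same sums. That list holds Ctla4, the gene whose levels followed Tnfrsf4 most closely, so it is not a separate reading. For the genotype difference in the node ratio in CD4 T cells, 0 of 8 were above 0, with a median of −0.29 against 0.00 over all genes, and none passed. Tigit, an inhibitory receptor of Treg and exhausted T cells, had the smallest p (−1.95, SE 0.58; adjusted p = 0.715 by edgeR). In other types the same term was not below 0 throughout. In CD4+ Treg cells 3 of 3 were above 0, with a median of 1.62, and Cd28, the main costimulatory receptor of T cells, had 2.60 (SE 0.75; adjusted p = 0.0928). In CD8 T cells 3 of 4 were above 0 and in CD4+ Mem T cells 2 of 6. For genotype alone, 2 of 8 were above 0 in udLN, with a median of −0.14, and 5 of 8 in brLN, with a median of 0.18. Of 4 Treg genes tested for the node ratio, 1 was above 0 and none passed, Il2ra, a cytokine receptor subunit gene of Treg cells, having −0.69 (SE 0.34; adjusted p = 0.981). The comparisons share the same control mice, so the lists are not independent of one another or of the 5 receptors.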

How the data were processed

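The authors deposited a matrix of raw UMI counts per gene and cell, with a table of mouse, tissue, genotype group, pool and cell type and a table of CD4 subsets. Per the labels' protocols, libraries were made with the 10x Genomics Single Cell 3′ kit, version 3. Per the submitters' processing notes, the build was GRCm38, and the tools named include Seurat, Scanpy 1.7.0, bustools 0.40.0 and kallisto 0.46.1. How cells were filtered, how doublets were treated and how types were named is not given in the sources used here, and no doublet caller was run. The cells of this matrix are from udLN and brLN; uterine cells were not analysed here.

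Second copies of 2127 cells were removed. Their mouse, tissue and cell type were identical, and 250 of the 251 with a CD4 subset had the same one. Counts were summed per mouse and node with at least 20 cells for CD4 T or CD8 T cells and 10 for other types, and per mouse for subsets. They were tested with edgeR 4.0.16 in R 4.3.3 (TMM scaling, filterByExpr, quasi-likelihood test, Benjamini-Hochberg adjustment, threshold 0.05). Genotype fits had pool and node as terms and treated the nodes of a mouse as independent, while node and node-ratio fits had mouse as a block. Alternatives used DESeq2 1.42.0, limma 3.58.1, other scaling, filters, terms and cell minimums, each mouse left out and the matrix as deposited, the last chosen after seeing the data, as was leaving mice out of the sums over mice in subsets. A count of 0 cells or UMIs allows up to 3 counts. Code was tested on simulated data. The mouse is the replicate, and each group holds 2 to 4.

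The genes, the gene lists and the tests were chosen with earlier results of these data known. Named were all 5 receptors in CD4 and CD8 T cells, in other types those with an unadjusted p below 0.05, per other list up to 3 genes past the threshold or the one with the smallest p, and the 3 genes most like each receptor, leaving out receptor and immunoglobulin segments and Gm and Rik genes, among genes with at least 20 CPM in some type. Of the 27 comparisons planned, 25 were run, since Tfh and Th17 cells had fewer than 2 WT mice with 10 cells. Some listed genes other than the 5 receptors were not analysed here.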

Additional observations from a re-analysis of the deposited data

Results flagged for a closer look

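For Tnfrsf4 in CD4 T cells, the fitted log2 difference between Aire-DTR and WT mice in the udLN over brLN ratio was −1.39. It passed by edgeR's test of that difference itself but not with DESeq2, and it was −0.69 without WT mouse 1. An exact two-sided permutation test of the ratios gave p = 0.133, the smallest that 4 against 2 mice allow. Within pool 1 the difference was −0.14 and within pool LN −1.80, so its size differed between pools. Whether mouse, pool or genotype sets it cannot be told apart with 2 WT mice. None of the 20 groups of 4 mice examined for a value that stands far from the others held one, where chance alone marks about 1 group in 20. WT groups held fewer than 4 mice and were not examined in this way, so WT mouse 1 was not checked.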

How the results depend on the processing

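No paired analysis was possible because, across the groups compared, the replicate numbers in the labels mark wells, and each well held cells of every mouse of its pool, so they pair no mice. Nodes were paired by mouse instead, and that block was part of the node and node-ratio fits as reported. The difference of Tnfrsf4 between genotypes in the node ratio (udLN over brLN within a mouse, log2) in CD4 T cells stayed below 0 under all 12 alternatives and passed under 10. Of these 10, the fit without WT mouse 97 repeats the fit as reported, since that mouse was not in it. Another of the 10 kept the second copies of cells. The Tnfrsf4 difference was −1.28 with DESeq2 (adjusted p = 0.9997), and −1.73 to −0.69 with each mouse left out, the highest being without WT mouse 1. Tnfrsf9 in CD4 T cells of udLN was below 0 under all 15 alternatives and passed with udLN fitted alone (−1.27, adjusted p = 0.0282), with −1.42 to −0.86 when each mouse was left out. Tnfrsf4 in CD4 T cells of brLN passed without WT mouse 97 (0.96) or Aire-DTR mouse 36 (0.92), and no other receptor's call changed. The cause of these changes was not tested. Signs turned in 29 values, in each of which the difference as reported had not passed. Of these, Tnfrsf18 by genotype in CD4 T cells of udLN was 0.015 with the node fitted alone, Tnfrsf4 by node in CD4 T cells −0.032 with no low-count filter and −0.014 with at least 5 cells, Cd27 by genotype in CD8 T cells of udLN 0.011 with at least 5 cells, and Tnfrsf18 in CD8 T cells −0.00071 by node with no low-count filter and −0.0097 for the node ratio with at least 5 cells. The others came with a mouse left out, over which log2 differences ran from −0.26 to 0.68 for Tnfrsf1b (genotype in CD4 T of brLN), −0.23 to 0.25 for Tnfrsf9 (genotype in CD4 T of brLN), −0.0404 to 0.96 for Tnfrsf4 (genotype in CD4 T of brLN), −0.16 to 0.25 for Tnfrsf18 (genotype in CD4 T of brLN), −0.20 to 0.0664 for Cd27 (genotype in CD4 T of brLN), −0.25 to 0.14 for Tnfrsf18 (genotype in CD4 T of udLN), −0.11 to 0.59 for Tnfrsf1b (node in CD4 T) and −0.52 to 0.12 for Tnfrsf9 (node in CD4 T). They ran from −0.27 to 0.17 for Tnfrsf4 (node in CD4 T), −0.62 to 0.23 for Tnfrsf18 (the node ratio in CD4 T), −0.0298 to 0.25 for Tnfrsf18 (genotype in CD8 T of brLN), −0.0452 to 0.10 for Cd27 (genotype in CD8 T of brLN), −0.18 to 0.31 for Tnfrsf18 (genotype in CD8 T of udLN), −0.22 to 0.0478 for Cd27 (genotype in CD8 T of udLN), −0.0578 to 0.12 for Tnfrsf18 (node in CD8 T) and −0.77 to 0.42 for Tnfrsf18 (the node ratio in CD8 T). Few UMIs limit Tnfrsf9 and Tnfrsf1b, with 9 to 66 and 6 to 40 UMIs in a CD4 T cell sum, and 2 WT mice limit udLN. Thinning to 1500 UMIs raised 37 of 70 shares by more than 1 SD. The correlation within mouse that limma voom estimated ran from −0.10 to −0.03.

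The number of genes past the threshold changed as follows. Genotype in CD4 T of brLN gave 0 as reported, 13 with no low-count filter, 1 with the node fitted alone, 4 with limma voom, 1 with the matrix as deposited and 0 to 6 with each mouse left out. Genotype in CD4 T of udLN gave 1 as reported, 0 with DESeq2, 5 with no low-count filter, 0 with no pool term, 7 with the node fitted alone, 3 with at least 5 cells a sum, 0 with limma voom, 2 with the matrix as deposited and 0 to 2 with each mouse left out. Node in CD4 T gave 22 as reported, 8 with DESeq2, 112 with no low-count filter and 8 to 24 with each mouse left out. The node ratio in CD4 T gave 5 as reported, 0 with DESeq2, 10 with no low-count filter and 1 to 8 with each mouse left out. Genotype in CD8 T of brLN gave 5 as reported, 0 with DESeq2, 14 with no low-count filter, 0 with no pool term, 3 with at least 5 cells a sum, 3 with the matrix as deposited and 0 to 10 with each mouse left out. Genotype in CD8 T of udLN gave 1 as reported, 0 with DESeq2, 2 with no low-count filter, 0 with no pool term, 2 with the node fitted alone, 0 with at least 5 cells a sum, 0 with limma voom, 2 with the matrix as deposited and 1 to 5 with each mouse left out. Node in CD8 T gave 10 as reported, 2 with DESeq2 and 6 to 11 with each mouse left out. The node ratio in CD8 T gave 7 as reported, 0 with DESeq2, 1 with at least 5 cells a sum and 4 to 7 with each mouse left out. Genotype in CD4+ Naive T of brLN gave 2 as reported, 0 with DESeq2, 5 with no low-count filter, 0 with no pool term, 1 with the node fitted alone and 0 to 6 with each mouse left out. Genotype in CD4+ Naive T of udLN gave 3 as reported, 0 with DESeq2 and 2 to 3 with each mouse left out. Genotype in CD4+ Mem T of brLN gave 0 as reported, 7 with no low-count filter, 1 with the node fitted alone, 3 with limma voom, 1 with the matrix as deposited and 0 to 6 with each mouse left out. Genotype in CD4+ Mem T of udLN gave 0 as reported, 8 with no low-count filter, 4 with the node fitted alone and 0 to 2 with each mouse left out. Node in CD4+ Mem T gave 6 as reported, 11 with RLE scaling, 31 with no low-count filter and 5 to 13 with each mouse left out. The node ratio in CD4+ Mem T gave 0 as reported, 8 with no low-count filter and 0 to 2 with each mouse left out. Genotype in CD4+ Treg of brLN gave 0 as reported, 6 with no low-count filter, 6 with the node fitted alone and 0 to 4 with each mouse left out. Genotype in CD4+ Treg of udLN gave 0 as reported, 1 with RLE scaling, 1 with DESeq2, 1 with no low-count filter, 1 with limma voom and 0 to 2 with each mouse left out. Node in CD4+ Treg gave 4 as reported, 1 with DESeq2, 1 with pool in place of mouse, 1 with the matrix as deposited and 1 to 4 with each mouse left out. The node ratio in CD4+ Treg gave 6 as reported, 0 with DESeq2, 0 with no low-count filter, 0 with at least 5 cells a sum, 0 with the matrix as deposited and 0 to 7 with each mouse left out. Genotype in B of brLN gave 0 as reported, 43 with no low-count filter, 4 with the node fitted alone and 0 to 1 with each mouse left out. Genotype in B of udLN gave 0 as reported, 3 with DESeq2, 56 with no low-count filter and 0 to 4 with each mouse left out. Node in B gave 2 as reported, 1 with DESeq2, 45 with no low-count filter, 0 with pool in place of mouse, 1 with the matrix as deposited and 1 to 5 with each mouse left out. The node ratio in B gave 1 as reported, 0 with DESeq2, 51 with no low-count filter and 2 to 6 with each mouse left out. Genotype in Resting Treg gave 1 as reported, 0 with DESeq2, 4 with no low-count filter, 0 with no pool term, 4 with the matrix as deposited and 0 to 7 with each mouse left out. Genotype in Act. Treg gave 2 as reported, 0 with DESeq2, 1 with no pool term, 4 with the matrix as deposited and 0 to 10 with each mouse left out. Genotype in Early Act. CD4 gave 1 as reported, 0 with DESeq2, 5 with no low-count filter, 0 with no pool term, 4 with the matrix as deposited and 0 to 12 with each mouse left out.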
